A study of Mus musculus with 24 samples.

Results

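Srf, Cyr61 (now Ccn1), Ctgf (now Ccn2), Ankrd1, Vcl, Acta2 and Tagln are genes of the serum response that are tied to the actin cytoskeleton, and their transcripts were followed here in NIH-3T3 mouse fibroblasts after fresh medium with or without interferon. Every probe set that the array's platform annotation assigned to one of these 7 symbols was taken. That gave 15 of the 45037 probe sets that were not controls, and 7 of the 18193 genes they name. The values are log2 signals from 24 Affymetrix arrays of total cellular RNA, one array a sample. Cells at passage 5 to 15 were given fresh medium and harvested later in 7 groups. At 3 h, 3 arrays each came from cells with 100 U/ml IFN-alpha, with 100 U/ml IFN-gamma, or with mock medium, and all 3 of these groups had 500 µM 4-thiouridine (4sU) from minute 150 to minute 180. At 1 h, 4 arrays each came from IFN-alpha, IFN-gamma and mock cells with 200 µM 4sU for the whole 60 minutes, and 3 arrays came from mock cells without 4sU. 4sU is a nucleoside that marks newly made RNA. NIH-3T3 is an established line of immortalized fibroblasts, so it stands for 1 cultured cell type. No array was taken before the medium change, so neither time can be set against resting cells. The serum content of the fresh medium is not given in the labels. The labels number the replicates but do not call them separate cultures. The p-values below therefore cover only the spread of arrays within groups, pooled over the 7 groups, which may be technical.

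Serum response factor (SRF) is a DNA-binding protein that sits on short A- and T-rich elements called CArG boxes. Its ternary complex cofactors respond to MAP kinase signalling and drive immediate early genes, while its myocardin-related cofactors are held by free actin monomers and enter the nucleus when actin polymerizes, where they drive cytoskeletal genes. YAP and TAZ, which also respond to actin tension, act on TEAD factors at Cyr61, Ctgf and Ankrd1, and fibroblasts given serum are the classical setting in which both arms are studied.

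The promoters of the members are shown first because SRF and TEAD factors bind short motifs near such start sites. RefSeq (GRCm38.p6) gave the 250 bases before the start for 5 of the 7 genes. In the lines below, 5′ to 3′ on the gene's own strand, capitals mark CArG boxes (in Acta2, the variant with 1 G or C in the core) and the TEAD motif GGAATG or its reverse CATTCC; both strands were searched and the motifs do not overlap.
Srf (chr17:46556163-46556412, minus strand): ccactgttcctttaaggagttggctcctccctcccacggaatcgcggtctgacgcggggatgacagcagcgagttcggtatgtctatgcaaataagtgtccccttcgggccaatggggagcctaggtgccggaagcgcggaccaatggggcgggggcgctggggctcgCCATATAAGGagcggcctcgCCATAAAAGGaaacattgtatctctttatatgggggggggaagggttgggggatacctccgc
Vcl (chr14:20929148-20929397, plus strand): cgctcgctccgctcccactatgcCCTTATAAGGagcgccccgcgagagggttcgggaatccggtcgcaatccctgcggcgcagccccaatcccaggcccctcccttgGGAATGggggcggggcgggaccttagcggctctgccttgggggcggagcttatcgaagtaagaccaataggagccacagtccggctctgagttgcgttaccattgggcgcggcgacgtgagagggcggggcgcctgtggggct
Cyr61 (chr3:145649986-145650235, minus strand): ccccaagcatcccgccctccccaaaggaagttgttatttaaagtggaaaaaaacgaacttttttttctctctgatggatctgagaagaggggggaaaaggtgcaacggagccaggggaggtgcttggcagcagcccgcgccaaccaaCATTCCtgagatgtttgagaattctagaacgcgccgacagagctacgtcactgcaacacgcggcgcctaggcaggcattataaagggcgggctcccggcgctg
Ankrd1 (chr19:36119845-36120094, minus strand): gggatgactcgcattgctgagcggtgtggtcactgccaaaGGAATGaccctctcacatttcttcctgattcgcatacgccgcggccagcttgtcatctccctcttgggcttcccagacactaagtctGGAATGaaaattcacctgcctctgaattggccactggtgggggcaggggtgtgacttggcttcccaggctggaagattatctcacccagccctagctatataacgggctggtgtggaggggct
Acta2 (chr19:34255374-34255623, minus strand): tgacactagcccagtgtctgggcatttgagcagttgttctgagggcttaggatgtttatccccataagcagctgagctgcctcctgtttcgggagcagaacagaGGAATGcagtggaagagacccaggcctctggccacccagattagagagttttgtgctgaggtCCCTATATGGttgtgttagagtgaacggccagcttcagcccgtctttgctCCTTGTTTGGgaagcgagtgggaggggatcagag
The Srf window held 2 CArG boxes and the Vcl window held 1, against 1.47% of 32851 mouse promoter windows of this length with at least 1. Acta2 held 2 of the variant CArG boxes, which 7.24% of windows hold at least once. The TEAD motif stood once in Vcl, Cyr61 and Acta2 and 2 times in Ankrd1, and 12.6% of all windows hold it. A match is a description of letters, not evidence that a factor sits there. Ctgf and Tagln were not analysed here for promoter sequence.

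The cells carried the profile their label gives. Of 13 fibroblast markers, 12 were measured, and the median level of the list was 11.97 on the log2 scale, with vimentin (Vim) at 13.8 and Fap, at 2.35, the one marker that did not pass. Defining smooth muscle markers were low (Myh11 2.67, Cnn1 3.03, Des 2.90), and the highest of that list was Smtn at 5.77. Striated muscle markers had a median of 2.55, with Tnnt2 highest at 5.10. Leukocyte markers were low apart from Cd14 at 5.35, and the epithelial and endothelial markers all stayed under 4. The array medians of fibroblast markers ran from 11.8 to 12.4 at 3 h, against 11.4 to 12.7 at 1 h. Of the 12, Lum alone was called between the times, lower at 3 h in IFN-gamma cells (9.46, against 9.92 at 1 h) and in mock cells (9.43, against 9.98). Bulk arrays cannot tell fewer cells of a type from less RNA per cell.

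RNA quality separated 5 arrays from the rest. On these, the β-actin control probe set near the transcript's 3′ end exceeded the 5′ one by 2.22 to 3.43 log2 units, against 0.78 to 1.37 on the other 10 arrays at 1 h and 0.80 to 0.97 on the 9 arrays at 3 h. They were replicate 2 in each of the IFN-alpha, IFN-gamma and mock groups at 1 h, and, in the group given no 4sU, replicates 2 and 3. All were 1 h arrays, so the differences of the members between 3 h and 1 h are given with and without them.

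Of the 15 probe sets, 13 exceeded log2 4 on at least 3 arrays and were tested among 19305 probe sets. The other 2, both of Acta2, stayed below that level on every array (highest 2.72 for 1444105_at and 3.13 for 1456658_at). For each gene the tested probe set with the highest mean is called its main one. Endings in the probe set names matter: an s or x before "at" marks probes that can match more than 1 transcript, which applies to the main probe sets of Srf, Cyr61 and Acta2, and other actin genes could add to the Acta2 signal.

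**Figure D1:**
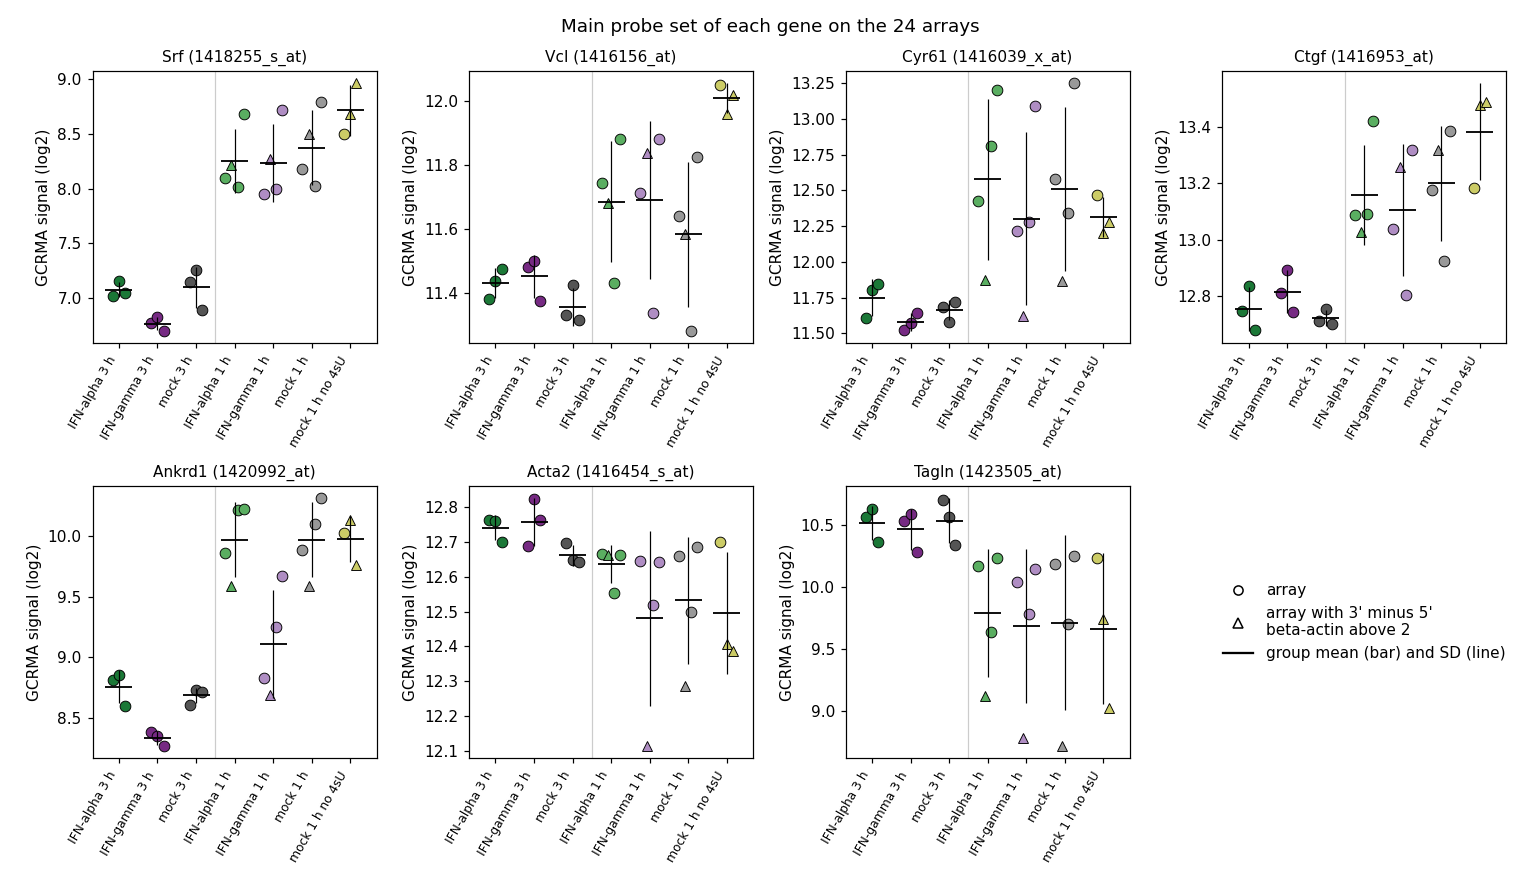
Log2 signal of the main probe set of each gene on every array, by group, with 3 h groups left of 1 h groups; horizontal bars are group means, vertical lines SDs, and triangles are the 5 arrays on which the β-actin probe sets differ by more than 2. Srf, Cyr61, Ctgf and Ankrd1 means are lower in each 3 h group than in the 1 h groups, Tagln means are higher, and Ankrd1 in IFN-gamma at 1 h lies under the other 1 h groups.

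Within each gene, the 7 group means fell into an order that mostly followed time. Srf was highest in mock cells without 4sU at 8.71 ± 0.23 (SD, n = 3) and lowest in IFN-gamma cells at 3 h at 6.77 ± 0.06 (n = 3). Its 4 groups at 1 h overlapped their neighbours in the order and ended 1.13 above the first group at 3 h, with no overlap. Between the 3 h groups, IFN-gamma lay under IFN-alpha (7.08 ± 0.07) without overlap, and IFN-alpha overlapped mock (7.10 ± 0.19).
The order for Ankrd1 began with 3 groups at 9.97 (mock without 4sU, mock and IFN-alpha at 1 h), went on to IFN-gamma at 1 h at 9.11 ± 0.44 (n = 4), and ended with IFN-gamma at 3 h at 8.33 ± 0.06 (n = 3). Cyr61 and Ctgf had the 4 groups at 1 h above the 3 groups at 3 h, but every neighbouring pair in their orders overlapped. Their means spanned 11.58 to 12.58 for Cyr61 and 12.72 to 13.38 for Ctgf. Acta2 and Tagln ran the other way, with the 3 groups at 3 h on top. For Tagln these 3 groups (10.47 to 10.54) did not overlap the next one (IFN-alpha at 1 h, 9.79 ± 0.52, n = 4), whereas all 7 means of Acta2 lay between 12.48 and 12.76. Vcl was highest without 4sU at 12.01 ± 0.05 (n = 3), apart from the next group, and the others overlapped from 11.69 down to 11.36.

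The first question the design allows is how these genes differed between 3 h and 1 h after the medium change. The 3 treatments gave 3 separate answers from different arrays. The times also differ in the dose and window of 4sU, and these cannot be told apart from time. Of the 13 probe sets, 4 were lower at 3 h in IFN-alpha cells, where 4.57% of all probe sets tested were lower. In IFN-gamma cells 4 were lower, against 5.91% of all probe sets, and in mock cells 5 were lower, against 5.88%. None of the 13 was higher, against 4.71%, 7.31% and 5.45% of all probe sets. The threshold was an adjusted p of 0.05 in limma with Benjamini-Hochberg adjustment over all probe sets tested. The median difference of the 13 was -0.61 in IFN-alpha, -0.37 in IFN-gamma and -0.55 in mock cells, while the median of all probe sets was 0.03, 0.07 and 0.06. The probe sets of a gene are not separate evidence, and the called ones belong to 4 genes: Srf, Cyr61, Ankrd1 and, in mock cells, Ctgf.

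Srf, the regulator itself and a target of its own product, was lower at 3 h in all treatments. On its main probe set, 1418255_s_at, the mock arrays read 7.15, 7.26 and 6.89 at 3 h, against 8.18, 8.50, 8.02 and 8.79 at 1 h. With IFN-alpha the values were 7.02, 7.15 and 7.05 at 3 h, against 8.10, 8.21, 8.02 and 8.68 at 1 h. With IFN-gamma they were 6.78, 6.83 and 6.70 at 3 h, against 7.95, 8.27, 7.99 and 8.72 at 1 h. The times did not overlap in any treatment, and replicate 4 was the highest array of each 1 h group. The difference was -1.18 ± 0.21 (SE, 2.26-fold lower, adjusted p = 0.000585 in limma) in IFN-alpha, -1.46 ± 0.21 (2.76-fold, adjusted p = 4.85e-05) in IFN-gamma and -1.27 ± 0.21 (2.42-fold, adjusted p = 0.000379) in mock cells. Without the 5 arrays of low 5′ actin signal it was -1.19, -1.45 and -1.23. The second Srf probe set, 1418256_at, did not follow: its differences were -0.26, -0.15 and 0.22 with standard errors of 1.00 (-0.88, -0.91 and -0.49 without the 5 arrays, adjusted p from 0.332 to 0.616), and it ran from 2.96 to 4.08 on the 5 arrays against 4.39 to 7.20 on the other 1 h arrays.

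Cyr61 encodes a secreted, integrin-binding matrix protein of the CCN family and is a classical immediate early gene. Of its 4 probe sets, 2 passed the test in every treatment and 2 in none. On 1457823_at the mock arrays read 7.22, 6.90 and 6.82 at 3 h, against 9.00, 10.05, 9.60 and 8.94 at 1 h. The IFN-gamma arrays read 6.54, 6.82 and 6.98 at 3 h, against 8.80, 9.71, 9.47 and 9.11 at 1 h, and the IFN-alpha arrays 7.09, 7.34 and 7.42 at 3 h, against 9.08, 9.91, 9.21 and 9.16 at 1 h. All 3 h arrays lay below all 1 h arrays, and replicate 2 was the highest array of each of these 1 h groups. The fitted differences were -2.05 ± 0.31 in IFN-alpha (4.15-fold lower, adjusted p = 0.000112 in limma), -2.49 ± 0.31 in IFN-gamma (5.62-fold, adjusted p = 1.13e-05) and -2.42 ± 0.31 in mock (5.34-fold, adjusted p = 3.03e-05). 1442340_x_at, which was designed from the same sequence record, gave -2.03, -2.31 and -2.43. Without the 5 arrays of low 5′ actin signal the differences were -1.86, -2.34 and -2.20 on 1457823_at and -1.82, -2.17 and -2.22 on 1442340_x_at, all of them called.
The main Cyr61 probe set, 1416039_x_at, showed a smaller difference that did not pass: -0.83 ± 0.32 in IFN-alpha (adjusted p = 0.109), -0.72 ± 0.32 in IFN-gamma (adjusted p = 0.136) and -0.85 ± 0.32 in mock (adjusted p = 0.087, 95% interval -1.51 to -0.19). The mock arrays read 11.69, 11.58 and 11.72 at 3 h, against 12.58, 11.87, 12.34 and 13.25 at 1 h, so replicate 2 stood lowest at 1 h here and highest on the other pair. The 5 arrays of low 5′ actin signal were low on 1438133_a_at (9.04 to 10.34, against 11.34 to 12.64 on the other 1 h arrays) and high on 1442340_x_at (9.78 to 10.75, against 9.11 to 9.94). Without these arrays all 4 Cyr61 probe sets were lower at 3 h in every treatment. The main one then gave -1.06 (adjusted p = 0.00933) in IFN-alpha, -0.95 (adjusted p = 0.0152) in IFN-gamma and -1.06 (adjusted p = 0.00957) in mock cells.

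Ctgf encodes the related CCN protein, connective tissue growth factor. Its probe set read 12.71, 12.76 and 12.70 in mock cells at 3 h, against 13.18, 13.32, 12.92 and 13.38 at 1 h. The times did not overlap, and replicate 3 was the lowest array at 1 h. The difference was -0.48 ± 0.15 in mock cells (1.39-fold lower, adjusted p = 0.0387 in limma), -0.40 ± 0.15 in IFN-alpha cells (adjusted p = 0.0924) and -0.29 ± 0.15 in IFN-gamma cells (adjusted p = 0.197, 95% interval -0.59 to 0.02). The mock call rested on several arrays: without replicate 2 or 4 at 1 h, or without any of the 3 replicates at 3 h, the adjusted p lay between 0.0898 and 0.124, and with only the compared groups in the fit it was 0.144. Without the 5 arrays of low 5′ actin signal the differences were -0.44 in mock cells (adjusted p = 0.0475), -0.44 in IFN-alpha cells (adjusted p = 0.051) and -0.24 in IFN-gamma cells (adjusted p = 0.271).

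Ankrd1 encodes a cardiac ankyrin repeat protein that works in the nucleus and, in striated muscle, at the sarcomere. On 1420992_at the mock arrays read 8.61, 8.73 and 8.72 at 3 h, against 9.88, 9.59, 10.10 and 10.31 at 1 h, and the IFN-alpha arrays 8.82, 8.86 and 8.60 at 3 h, against 9.86, 9.59, 10.21 and 10.22 at 1 h. The IFN-gamma arrays read 8.38, 8.35 and 8.27 at 3 h, against 8.83, 8.69, 9.25 and 9.67 at 1 h. All 3 treatments had separate times, and the gap was narrowest with IFN-gamma, whose 1 h arrays were the lowest. The differences were -1.21 ± 0.21 in IFN-alpha (2.32-fold lower, adjusted p = 0.000586 in limma), -0.78 ± 0.21 in IFN-gamma (1.71-fold, adjusted p = 0.019) and -1.28 ± 0.21 in mock cells (2.44-fold, adjusted p = 0.000487). Whether the IFN-gamma difference is smaller than the mock one was tested directly, and the estimate of 0.51 ± 0.30 (95% interval -0.12 to 1.13) did not pass (adjusted p = 1.00). In a limma fit with the replicate number as a block within each time, its adjusted p was 0.0569. The estimate on 1420991_at was 0.60 in that fit (adjusted p = 0.0507), so neither probe set passed.
The IFN-gamma call was lost without replicate 4 at 1 h or any replicate at 3 h (adjusted p from 0.0545 to 0.0679), and with only the compared groups in the fit (adjusted p = 0.119). Without the 5 arrays of low 5′ actin signal the differences were -1.34 in IFN-alpha, -0.92 in IFN-gamma (adjusted p = 0.0023) and -1.41 in mock cells, all called. The second probe set, 1420991_at, gave -0.97 ± 0.36, -0.37 ± 0.36 and -0.97 ± 0.36 and passed in no treatment with all arrays. Without those arrays it gave -1.23, -0.65 and -1.22 (adjusted p = 0.000559, 0.0308 and 0.000791).

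**Figure D2:**
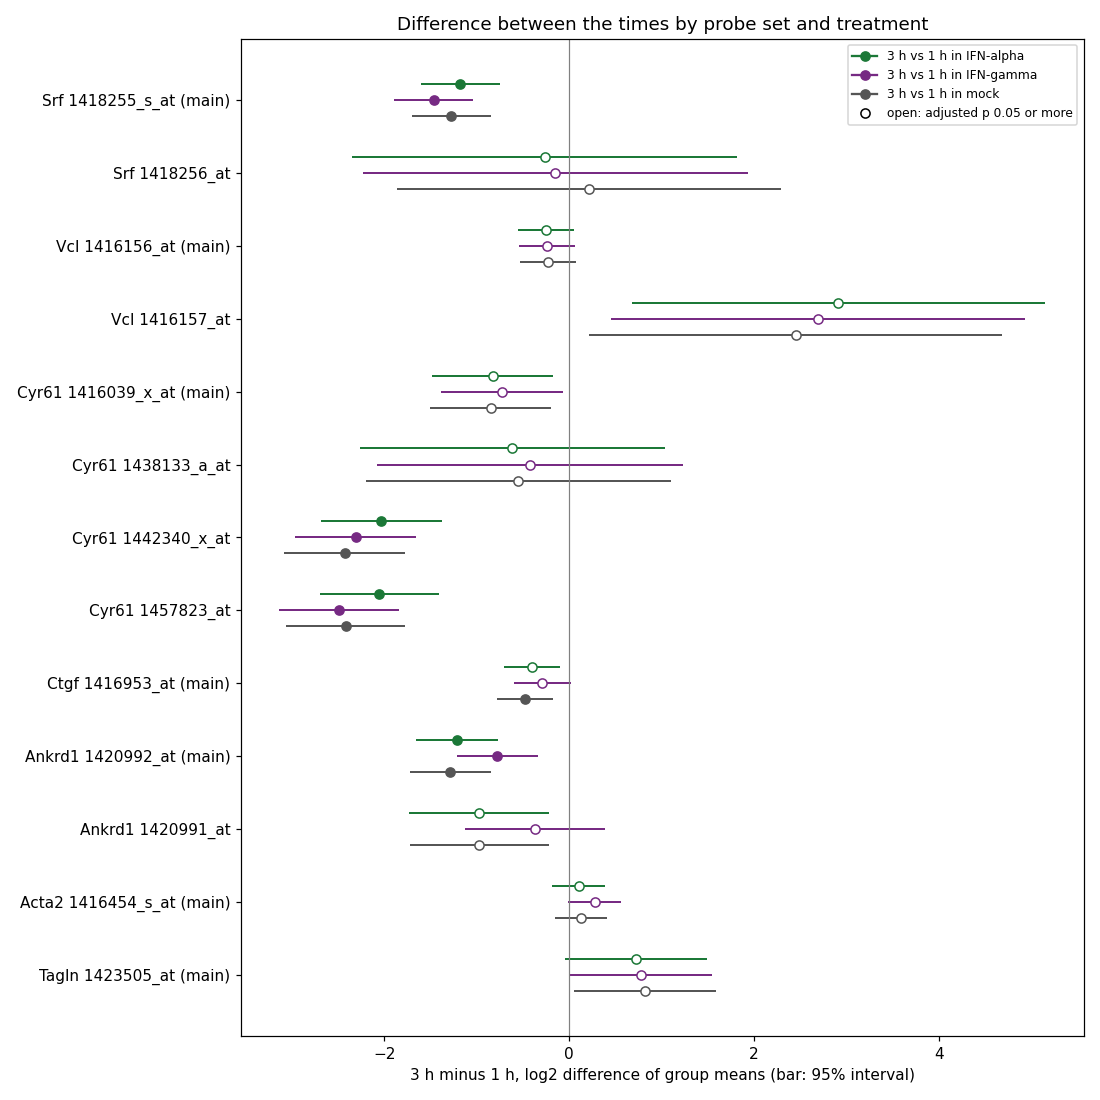
Difference of group means, 3 h minus 1 h, on the log2 scale (horizontal axis) for the 13 tested probe sets in IFN-alpha, IFN-gamma and mock cells; lines are 95% intervals and filled points have an adjusted p under 0.05. The main Srf and Ankrd1 probe sets and 2 of the 4 Cyr61 probe sets are filled and left of 0 in all treatments, the other 2 Cyr61 probe sets are also left of 0 but open, and the second Vcl probe set lies far right of 0 with a wide interval and open points.

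Vcl encodes vinculin, which couples integrin and cadherin adhesions to actin filaments. Its main probe set, 1416156_at, read 11.32 to 11.42 in mock cells at 3 h, against 11.28 to 11.83 at 1 h, and the times overlapped. The differences of -0.25, -0.24 and -0.23 (each ± 0.15) did not pass, with adjusted p of 0.306, 0.281 and 0.310 in IFN-alpha, IFN-gamma and mock cells, and without the 5 arrays of low 5′ actin signal they were -0.26, -0.19 and -0.23 (adjusted p from 0.308 to 0.429). The second Vcl probe set, 1416157_at, went the other way. It ran from 7.79 to 8.60 over all 9 arrays at 3 h, against 5.86 to 6.87 on the 10 other arrays at 1 h and 2.29 to 3.86 on the 5 arrays of low 5′ actin signal. With all arrays the differences of 2.91, 2.69 and 2.45 (each ± 1.07) did not pass, with adjusted p from 0.0975 to 0.142. Without those 5 arrays they were 1.91, 1.78 and 1.66, with adjusted p of 6.36e-05, 0.000132 and 0.000411. The 2 Vcl probe sets had differences of opposite sign, and which transcript forms each one detects was not tested.

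**Figure D3:**
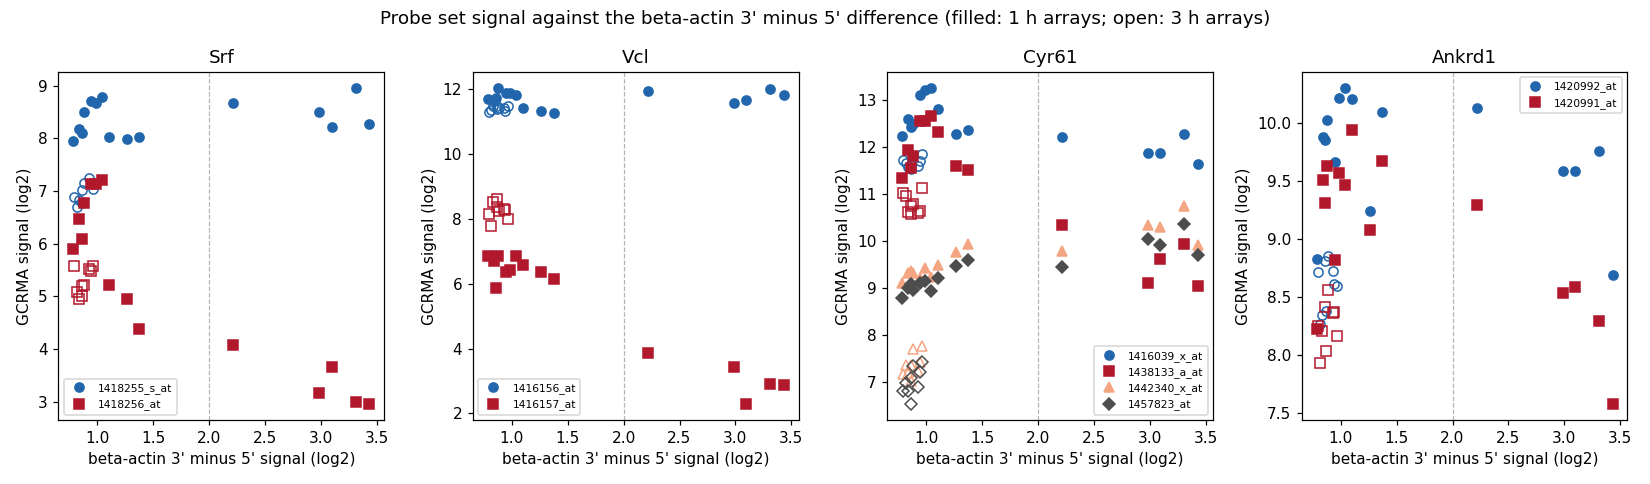
Log2 signal of the probe sets of Srf, Vcl, Cyr61 and Ankrd1 on each array (vertical axis) against the 3′ minus 5′ difference of the β-actin control probe sets on that array (horizontal axis, log2). On the 5 arrays beyond 2, the second Srf and Vcl probe sets and Cyr61 1438133_a_at read below all other 1 h arrays, while Cyr61 1442340_x_at and 1457823_at are among their highest values.

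Acta2 encodes smooth muscle α-actin and Tagln encodes transgelin, an actin-bundling protein, and both are textbook targets of SRF with its myocardin-related cofactors. Acta2 read 12.64 to 12.82 on all 9 arrays at 3 h, against 12.11 to 12.70 on the 15 arrays at 1 h. The differences of 0.10, 0.28 and 0.13 (each ± 0.14) did not pass, and the 95% intervals reached at most 0.56, so larger rises lie outside them. They were, without the 5 arrays of low 5′ actin signal, 0.11, 0.15 and 0.05, with adjusted p from 0.257 to 0.758. Tagln read 10.28 to 10.70 on the 9 arrays at 3 h and was higher on each of them than on every 1 h array, where it read 9.64 to 10.25 on 10 arrays and 8.72 to 9.74 on the 5 of low 5′ actin signal. Its differences were 0.73, 0.78 and 0.82 (each ± 0.37), with adjusted p of 0.242, 0.170 and 0.150. Without the 5 arrays they were 0.50, 0.48 and 0.49 (adjusted p = 0.0778, 0.0812 and 0.0759). With array weights Tagln was called higher at 3 h in all treatments (0.55, 0.60 and 0.57, adjusted p = 0.0199, 0.0248 and 0.0433). Neither gene passed with all arrays weighted alike.

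The second question is what interferon added to mock medium. In the reported fit, which does not pair arrays, no member passed in any comparison with mock. With the replicate number as a block, which pairs arrays within a time, 3 calls were made, all for IFN-gamma: both Ankrd1 probe sets at 1 h and the main Srf probe set at 3 h. For IFN-gamma that fit called 428 of all 19305 probe sets at 1 h and 1029 at 3 h. The 1 call among 13 at 3 h is too few to set the members apart from all probe sets. The shares that follow are those of the reported fit. At 3 h, where 1.55% of probe sets were called with IFN-alpha and 1.99% with IFN-gamma, 0 of the 13 passed limma's test. An unadjusted p under 0.05 was held by 0 of the 13, against 3.14% and 4.77% of all probe sets. All 7 groups share a single estimate of spread per probe set, so standard errors at 3 h also carry the larger spread at 1 h. At 1 h, where 0.259% were called with IFN-alpha and 0.492% with IFN-gamma, 0 of 13 passed. Of the 13, 0 with IFN-alpha and 2 with IFN-gamma, both of Ankrd1, had an unadjusted p under 0.05. The shares over all probe sets were 1.60% and 3.00%. The main probe sets differed from mock by -0.02 to 0.09 with IFN-alpha at 3 h and by -0.12 to 0.10 at 1 h. The 2 interferons share the mock arrays, so their differences are not independent.

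**Figure D4:**
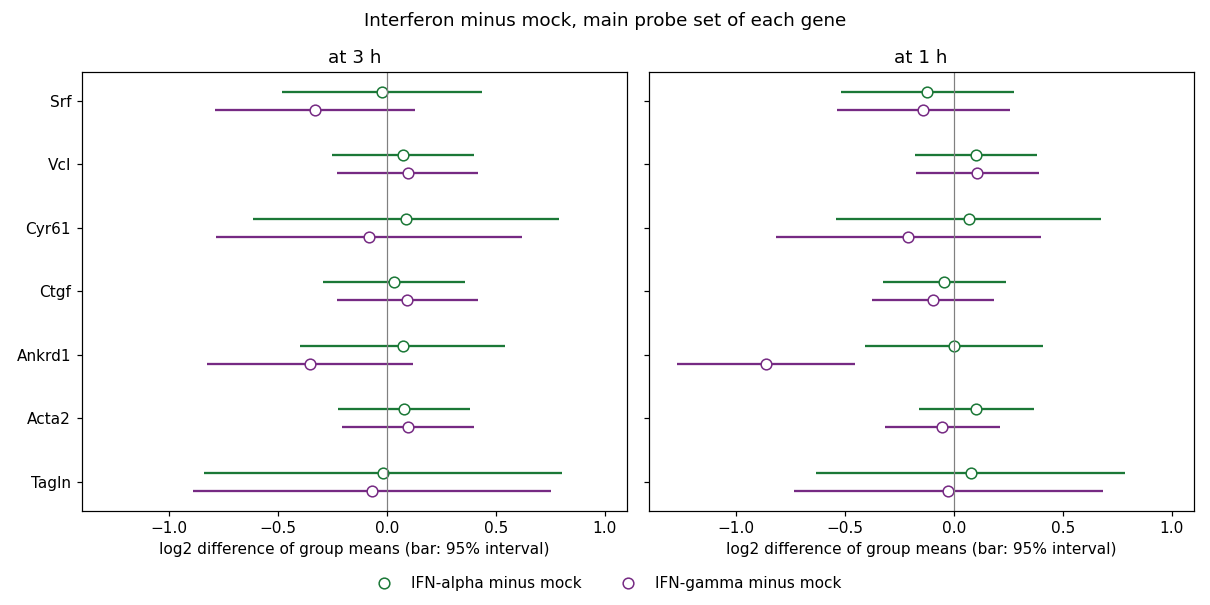
Log2 difference of group means, interferon minus mock (horizontal axis), for the main probe set of each gene at 3 h (left) and 1 h (right); lines are 95% intervals from the fit without the replicate block, in which no adjusted p is under 0.05. Ankrd1 with IFN-gamma at 1 h, at -0.86, is the one value whose interval does not reach 0.

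Among the members, Ankrd1 differed most from mock, with IFN-gamma at 1 h, and was called with the replicate block but not in the reported fit. Its main probe set read 8.83, 8.69, 9.25 and 9.67 with IFN-gamma, against 9.88, 9.59, 10.10 and 10.31 in mock cells. Replicate 4 with IFN-gamma overlapped the lowest mock array, and the other 3 lay below all mock arrays. The difference was -0.86 ± 0.20 (95% interval -1.27 to -0.45, 1.82-fold lower) with an adjusted p of 0.057. The labels state no pairing, but same-numbered arrays were taken as pairs within a time because they deviated from their group means together. In each of the 4 pairs IFN-gamma was lower, by -1.06 to -0.64 on this probe set and by -1.28 to -0.60 on 1420991_at. With the replicate number as a block the adjusted p was 2.71e-05 and 0.000113 for the 2 probe sets. Without the arrays of low 5′ actin signal the difference was -0.85 with an adjusted p of 0.0436. Leaving out mock replicate 2 or IFN-gamma replicate 4 also brought it under the threshold (adjusted p = 0.0245 and 0.00603).
With IFN-alpha the Ankrd1 mean was 9.97 in both groups, and the 95% interval of the difference was -0.41 to 0.41. Set directly against each other at 1 h, where 0.363% of probe sets were called and 0 of 13 here, IFN-alpha exceeded IFN-gamma by 0.86 ± 0.20 (adjusted p = 0.0696, and 3.69e-05 with the replicate block). It was higher in all 4 pairs.

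At 3 h Ankrd1 stayed lower in IFN-gamma cells by value, though the test did not pass. It read 8.38, 8.35 and 8.27 with IFN-gamma, against 8.61, 8.73 and 8.72 in mock cells, with no overlap. The difference was -0.35 ± 0.23 (adjusted p = 1.00, and 0.0565 with the replicate block). Group SDs at 3 h were 0.06 with IFN-gamma and 0.07 in mock cells, while the standard error also carries the spread at 1 h. IFN-alpha exceeded IFN-gamma by 0.42 ± 0.23 (adjusted p = 1.00, and 0.0199 with the block), in a comparison in which 1.68% of probe sets were called and 0 of 13 here. The second Ankrd1 probe set, 1420991_at, was not called with the block in either comparison at 3 h. It differed by -0.27 for IFN-gamma against mock (adjusted p = 0.294) and by 0.32 for IFN-alpha against IFN-gamma (adjusted p = 0.186).
Srf showed the same layout at 3 h. Its main probe set read 6.78, 6.83 and 6.70 with IFN-gamma, against 7.15, 7.26 and 6.89 in mock cells, with no overlap and all 3 pairs lower. The difference of -0.33 ± 0.22 (95% interval -0.79 to 0.13) had an adjusted p of 1.00, and of 0.0356 with the replicate block. On the second Srf probe set, 1418256_at, the difference was -0.44 and was not called with the block (adjusted p = 0.346). It passed with only the compared groups in the limma fit (adjusted p = 0.0406). On 1418256_at IFN-alpha was also below mock in all 3 pairs, at -0.26. At 1 h the difference of the main Srf probe set with IFN-gamma was -0.14 ± 0.19, lower in all 4 pairs. With IFN-alpha at 1 h it was -0.12, also lower in all 4 pairs, so this was not particular to IFN-gamma.
The other main probe sets gave 95% intervals that include 0. With IFN-gamma at 1 h, Ctgf differed by -0.10 (-0.38 to 0.19), Vcl by 0.11 (-0.17 to 0.39), Acta2 by -0.05 (-0.31 to 0.21), Cyr61 by -0.21 (-0.82 to 0.40) and Tagln by -0.02 (-0.73 to 0.69). The change of either interferon's difference between 3 h and 1 h also passed for 0 of 13 probe sets, where 0.953% of all passed for IFN-alpha and 0.829% for IFN-gamma.

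The third comparison was 4sU against none in mock cells at 1 h. There 0.0311% of all probe sets were called and 0 of 13 here. An unadjusted p under 0.05 in limma was held by 1352 of all 19305 probe sets. Among the 13 it was held by 1, which is too few to set the members apart from all probe sets. This was the main probe set of Vcl. On that probe set Vcl read 11.64, 11.58, 11.28 and 11.83 with 4sU, against 12.05, 11.96 and 12.02 without. The groups did not overlap, and the difference was -0.43 ± 0.15 (95% interval -0.73 to -0.12, adjusted p = 0.508). The second Vcl probe set, 1416157_at, went the other way, with means of 5.79 ± 1.61 with 4sU and 4.55 ± 2.06 without. Srf differed by -0.34 ± 0.21 and overlapped. Low 5′ actin signal marked 1 of the 4 arrays with 4sU and 2 of the 3 without. Leaving those arrays out keeps only 1 array without 4sU, too few to judge their part in these differences.

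Wider lists place the members among the genes of their pathways, which they share in part. Counts over these lists take each gene at its main probe set, so Cyr61, whose called probe sets are not its main one, counts there as not called. Over all probe sets tested, 4.57% were lower and 4.71% higher at 3 h in IFN-alpha cells, 5.91% lower and 7.31% higher in IFN-gamma cells, and 5.88% lower and 5.45% higher in mock cells, with medians of 0.03, 0.07 and 0.06. The shares that were lower without the 5 arrays of low 5′ actin signal were 6.61%, 7.29% and 7.6%, and those that were higher were 8.42%, 12% and 10.6%.
Of 17 measured immediate early targets of SRF, 10 were lower at 3 h in IFN-alpha cells, 9 lower and 1 higher in IFN-gamma cells, and 10 lower in mock cells. Their median differences were -1.45, -1.19 and -1.19. With the 5 arrays of low 5′ actin signal left out, 13 were lower in IFN-alpha cells, 14 lower and 1 higher in IFN-gamma cells, and 13 lower in mock cells. With all arrays, the largest differences in mock cells were those of the zinc finger factors Egr3 (12.1-fold lower, -3.60 ± 0.19) and Egr2 (-2.63 ± 0.30), the zinc finger factor Klf10 (-2.39 ± 0.19) and the nuclear receptor Nr4a1 (-2.10 ± 0.47). Dusp1, a MAP kinase phosphatase, was the one that was higher at 3 h with IFN-gamma (8.75, against 7.66 at 1 h, adjusted p = 0.0231 in limma), and at 1 h it was lower with IFN-gamma than in mock cells (7.66 against 9.24, adjusted p = 0.00656).

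The cytoskeletal targets of SRF were a longer list. Of 35 measured, Vcl, Acta2 and Tagln included, 2 were lower at 3 h in IFN-alpha cells, 2 in IFN-gamma cells and 3 in mock cells, where 1 was higher. The medians were 0.15, 0.11 and 0.13. These counts lie close to the shares over all probe sets, so they show nothing particular to the list. Leaving out the 5 arrays, 2 were lower and 3 higher in IFN-alpha cells, 2 lower in IFN-gamma cells, and 3 lower and 1 higher in mock cells. Filip1l, a filamin A interacting protein-like gene, was lower at 3 h in all treatments (-1.20, -1.08 and -1.52, each ± 0.22). Enah, an actin filament elongation factor, differed by -0.65, -0.55 and -0.55, although 3 further probe sets of it did not fall at the threshold and 1 of these was higher in mock cells (0.98, adjusted p = 0.0446). The actin-binding tropomyosin gene Tpm1 was higher in mock cells (11.37 at 3 h, against 10.59 at 1 h, adjusted p = 0.0455), with 1 of its other 2 probe sets at 1.88 and 1 at -0.68, neither called. Tuft1 was the remaining one lower in mock cells, with both means under log2 4.

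Of 23 measured YAP and TEAD targets, Cyr61, Ctgf and Ankrd1 included, 2 were lower in IFN-alpha cells, 3 lower and 1 higher in IFN-gamma cells, and 4 lower and 1 higher in mock cells. The medians were 0.05, 0.00 and 0.03. Leaving out the 5 arrays of low 5′ actin signal, 3 were lower and 1 higher in IFN-alpha cells, 6 lower and 1 higher in IFN-gamma cells, and 5 lower in mock cells. F3, which encodes tissue factor, the starter of blood clotting, was lower at 3 h in all treatments. It read 8.19, 8.36 and 8.44 in mock cells at 3 h, against 10.80, 10.16, 11.13 and 11.88 at 1 h (-2.66 ± 0.34, adjusted p = 3.10e-05 in limma). With IFN-gamma at 3 h it read 10.75, 10.64 and 10.45, which is 4.86-fold above mock cells at 3 h (2.28 ± 0.37, adjusted p = 0.000455), whereas Ankrd1 lay below mock in the same arrays. Rbms3, an RNA-binding protein gene, was lower in IFN-gamma (-0.64) and mock cells (-0.85), and Ajuba, a LIM protein gene, was higher in both (1.15 and 0.80), though in mock cells not without the 5 arrays (0.69, adjusted p = 0.0989).

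Of 13 measured genes in the list of SRF and its cofactors, Srf was the only one called in IFN-alpha and mock cells. The list also held Wwtr1, which encodes TAZ and so belongs with the TEAD factors rather than with SRF. Wwtr1 was, besides Srf, lower in IFN-gamma cells (-0.72 ± 0.17, adjusted p = 0.00712), while its other 2 probe sets, at -0.42 and -0.14, did not pass. With 1, 2 and 1 of 13 lower in IFN-alpha, IFN-gamma and mock cells, and 2, 3 and 3 without the 5 arrays, these counts are small, and 1 of 13 is near the shares over all probe sets. In the CCN family 4 of 6 genes were measured, and on the main probe sets Ctgf in mock cells was the one call, besides the 2 further Cyr61 probe sets described above. The fit without the 5 arrays called 2 lower in IFN-alpha cells, 1 in IFN-gamma cells and 2 in mock cells.

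Across the 7 group means, the main probe sets of Srf, Cyr61, Ctgf and Ankrd1 correlated with one another at r from 0.87 to 0.96 in 6 pairs, and with Acta2 and Tagln at r from -0.97 to -0.68 in 8 pairs. Acta2 and Tagln correlated with each other at 0.89. Vcl correlated with the first 4 genes at r from 0.68 to 0.92 and with Acta2 and Tagln at -0.74 and -0.83. The genes are grouped here by these values. The genes on the array most like each member by this measure, out of about 2010 that spanned at least 1 log2 unit, were Lbh, Palld and Dkk2 for Srf (r = 1.00 each) and Fosb, Spry1 and Dlx2 for Ankrd1 (0.98 each). They were Fgd4, Klf2 and Thsd7a for Cyr61 (0.99 each), Rpgrip1, Rab33b and Bclaf3 for Ctgf (0.99 each), and Ccnf, Pck2 and Phospho2 for Tagln (1.00 each). For Vcl they were Gmeb2, Zfp704 and Dusp16 (0.97 to 0.98), and for Acta2 they were Cers4, Syvn1 and Ska2 (0.96 to 0.98), though the means of these 2 members spanned only 0.65 and 0.28. All points share the arrays, their RNA quality and the split into times, so these values are descriptions.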

How the data were processed

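Per the submitters' processing notes, the authors used GCRMA, and the deposited values are log2 signals per probe set, which were used as given (array medians 2.95 to 3.11). Raw array files were not used here, and hybridization dates are not given in the sources used here. Gene symbols came from the platform annotation, which can be old: of 45101 probe sets, 64 were controls, 34945 had 1 symbol, 932 several and 9160 none, and no probe set with several symbols held a member. Probe sets above log2 4 on at least 3 arrays (19305) were fitted in R 4.3.3 by lmFit and eBayes of limma 3.58.1, as 7 group means with 17 residual degrees of freedom. The comparisons were contrasts of that fit, with Benjamini-Hochberg adjustment over all probe sets and a threshold of 0.05. The fit was tested on simulated data with known changes. The simulated arrays were independent with equal spread in all groups, so that test does not cover pairing, RNA quality or unequal spread. Each ± after a difference is a standard error and each ± after a level an SD. The number of arrays limits the precision, and spread at 1 h (median SD 0.35 to 0.40) exceeded that at 3 h (0.12 to 0.13). Because the fit pools the spread of all 7 groups, differences within 3 h were tested against a spread that includes the 1 h arrays.

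Same-numbered arrays deviated from their group means together within a time (r over probe sets 0.46 to 0.91 at 1 h and 0.13 to 0.65 at 3 h between interferon and mock or between interferons), so the numbers were taken to pair those arrays. They were not taken to pair mock arrays with those without 4sU (0.08 to 0.80) or the times (-0.27 to 0.18). The first of these ranges overlaps the one accepted at 3 h, so that choice is not settled by the values.

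All probe sets of the members were reported. From each wider list, up to 4 called genes with the largest change in each direction were eligible, and for likeness the 3 genes with the highest r of group means. Members and lists were chosen with earlier results of these data known. Alternatives were other filters (none, or log2 6), a floor at log2 4, added quantile normalization, array weights (whose fit stopped short of its convergence tolerance), a trended robust prior, only the compared groups, the replicate block, and leaving out the 5 arrays of low 5′ actin signal or each replicate in turn. Promoters are from RefSeq (GRCm38.p6). One further list of pathway genes is not reported here.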

Additional observations from a re-analysis of the deposited data

Results flagged for a closer look

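In the groups of 4 arrays, 6 values among 39 combinations of group and probe set lay apart from the other arrays of their group by Dixon's criterion, which chance exceeds in about 1 of 20 groups. Of these, 4 were on replicate 2 at 1 h, an array of low 5′ actin signal in each treatment. Vcl 1416157_at read 2.29 with IFN-alpha and 2.88 with IFN-gamma there, below the other arrays of its group. Cyr61 1442340_x_at read 10.3 and Cyr61 1457823_at read 9.91 on replicate 2 with IFN-alpha, above the other arrays. The other two were in IFN-alpha cells at 1 h: Acta2 1416454_s_at read 12.56 on replicate 3, just below the other arrays, and Ctgf read 13.4 on replicate 4, above them.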

How the results depend on the processing

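Of 2678 recomputed differences of the members, 2382 kept their sign and their side of the threshold, 69 newly passed, 11 no longer passed, none that passed in either setting changed sign, and 216 that passed in neither changed sign. Numbers of member probe sets called at 3 h against 1 h, in the order IFN-alpha, IFN-gamma and mock, were 4, 4 and 5 as reported, 11, 7 and 10 with array weights, 8, 8 and 9 without the arrays of low 5′ actin signal, and, leaving out single replicates, 4 to 6, 3 to 4 and 4 to 6. Both directions are joined here: Vcl 1416157_at with weights or without the low arrays, and Tagln with weights, were higher at 3 h. With weights the totals over all 19305 probe sets rose too, to 6116, 5469 and 4540, so a larger count is not particular to the members. For IFN-gamma against mock at 1 h the count of 0 became 1 (Ankrd1) with the log2 6 filter, the floor, quantile normalization, array weights, the trended prior or without the low arrays, and 0 to 1 leaving out single replicates. At 3 h it became 2 with array weights and 1 with only the compared groups, fits in which 2223 and 952 of all probe sets were called. IFN-alpha against IFN-gamma gave 1 (0 to 1 leaving out replicates) at 1 h and 5 at 3 h with array weights, against 0.

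With the replicate block, which is the paired fit within a time, counts were 2 for IFN-gamma against mock and 2 for IFN-alpha against IFN-gamma at 1 h, and 1 each at 3 h, and it changed no other call within a time. Between the times the numbers share nothing known, and the block gave 9, 7 and 9. Tagln and Vcl 1416157_at were among them, higher at 3 h in all 3 treatments. The same fit called 4832, 6974 and 6962 of all probe sets. Leaving the low arrays out of the wider lists was chosen after seeing the data.

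Counts over all probe sets moved too. For 3 h against 1 h they were 1792, 2551 and 2188 as reported, 6116, 5469 and 4540 with weights, 4832, 6974 and 6962 with the block, and as low as 1007, 1329 and 984 without 1 replicate (replicate 2 of IFN-alpha, 2 of IFN-gamma and 1 of mock at 3 h). With only the compared groups they were 1088 (IFN-gamma) and 822 (mock), with the log2 6 filter 1624 and 1278, and without the low arrays 2902 (IFN-alpha) and 3521 (mock). For IFN-alpha and IFN-gamma against mock the block gave 135 and 428 at 1 h (50 and 95 as reported) and 591 and 1029 at 3 h (300 and 385), only the compared groups gave 14 and 28, then 506 and 952, and weights gave 1813 and 2223 at 3 h. For IFN-alpha against IFN-gamma (70 at 1 h and 325 at 3 h) the block gave 401 and 906, only the compared groups 10 and 869, and weights 2046 at 3 h. For the change of the responses (184 and 160) the block gave 389 and 527 and weights 287 and 331. For 4sU (6) the range was 0 to 28. The cause of these shifts was not tested. Signals near log2 4 are close to background, which limits the weaker probe sets.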
